A study of Homo sapiens with 29 samples.

Results

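Open chromatin was compared between 2 libraries of 22Rv1 cells with doxycycline (Dox) and the C258A-FOXA1 construct and 2 libraries of the WT-FOXA1 line that received no Dox. These 4 libraries, out of 29 in the series, were taken because the labels give them the vehicle DMSO (0.1%, 3 h) and these genotypes. 22Rv1 is a human prostate cancer cell line. Each line overexpressed Y36C-PHF5A, a variant of a spliceosome subunit, and carried FOXA1 behind a Dox-inducible switch, as C258A in one line and as wild type in the other. No deletion of the cells' own FOXA1 is named in the labels, and they give neither the dose and duration of Dox nor whether a line is 1 clone or a pool. The WT-FOXA1 line given Dox and DMSO, with 2 libraries, served as the reference between them, since these share Dox with the first group and the cell line with the other. Line and Dox differ together in the main comparison and cannot be told apart by it.

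FOXA1 is a forkhead transcription factor of luminal prostate cells. It is called a pioneer factor because it binds its sites on nucleosomal DNA and opens enhancers that the androgen receptor and other factors then use. C258 lies in its DNA-binding domain and is the cysteine to which the stereoprobe WX-02-23 attaches, so the C258A protein lacks that attachment point. ATAC-seq reads open DNA as places where a transposase inserts sequencing adapters, and a peak is a place with more reads than the local background.

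The C258A-FOXA1 lists with Dox held 84260 and 87171 peaks, and the lists without Dox 69814 and 67195. The groups did not overlap. The means were 85716 ± 2058 and 68505 ± 1852 (SD, n = 2 each), and they differed by 17211 peaks (exact permutation test, two-sided, p = 0.33). No smaller p can come from 2 libraries against 2. The genome-wide background in reads per base, which measures relative depth, was 0.750 and 0.866 with C258A-FOXA1 and Dox, 0.809 and 0.723 without Dox, and 0.869 and 0.844 in the WT-FOXA1 line with Dox, whose lists held 88140 and 85009 peaks. Longer lists went with higher backgrounds over these 6 libraries, except that C258A-FOXA1 replicate 1 had more peaks at a lower background than the replicate 1 without Dox. The lowest summit called held 6 reads in each of these 6 libraries, and a place with fewer reads was not detectable. The labels do not say whether replicates came from separate cultures, so their spread may be technical.

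Merging the 4 lists gave 104443 regions. All 4 lists held 50911 of them (48.7%), and 36557 (35.0%) fell into mixed patterns. Both C258A-FOXA1 lists and neither list without Dox held 14953 regions, 14.3% of all. These are called C258A-Dox regions here. The reverse pattern was found at 2022 regions, 1.94% of all, called no-Dox regions. Patterns of 1 list from each group, which mix the groups, held 929, 1208, 1235 and 1550 regions. The no-Dox count was above these but of the same order, while the C258A-Dox count was far above them. How many no-Dox regions come from scatter between lists was not tested. The C258A-Dox regions were 7.40 times as many as the no-Dox regions. With the 4 lists at 1 length by the deposited p-value, the counts became 8947 and 4994, so the excess kept its direction and shrank. With peaks of at least 6-fold enrichment there were 9859 and 1797. A presence rule over fewer lists passes more regions: there were 23737 C258A-Dox regions without C258A-FOXA1 replicate 1. The no-Dox regions numbered 3757 without C258A-FOXA1 replicate 1, 4376 without C258A-FOXA1 replicate 2, 5143 without the replicate 1 that had no Dox, and 6315 without the replicate 2 that had no Dox. A count of regions in 2 against 2 libraries has no test here.

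The largest class of C258A-Dox regions was also open in the WT-FOXA1 line once Dox was given. Both WT-FOXA1 lists with Dox held 8511 of the 14953 regions (56.9%; 8.15% of all regions). A further 3179 (21.3%; 3.04% of all) were held by 1 list and 3263 (21.8%; 3.12% of all) by neither. The split depends on the C258A-FOXA1 libraries. Without replicate 1, both WT-FOXA1 lists held 9959 of 23737 regions and neither held 8378, and without replicate 2 they held 9661 of 21929 and neither held 7282. With a fold of at least 6 both held 4794 of 9859, and with lists of 1 length the number was 4616. By library, 67.6% and 67.5% of the C258A-Dox regions had a peak, 67.5% ± 0.052 (SD, n = 2). At the 50911 regions of all 4 lists, both lists with WT-FOXA1 and Dox held 96.1%. At regions of a single C258A-FOXA1 list, with no peak in the other 3, both held 16.1% and neither held 58.9%.

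Of the 2022 no-Dox regions, both WT-FOXA1 lists with Dox held 802 (39.7%; 0.768% of all regions), 1 list held 702 (34.7%; 0.672% of all) and neither held 518 (25.6%; 0.496% of all). By library the share was 60.2% and 53.8%, or 57.0% ± 4.5 (SD, n = 2). This lies below the mean share of the C258A-Dox regions, but the order turned round when either C258A-FOXA1 library was left out. The mean shares of C258A-Dox and no-Dox regions were then 53.3% and 65.2% without replicate 1, and 55.4% and 67.8% without replicate 2. With lists of 1 length over these 6 libraries the share fell to 42.6%, and 1270 of the regions were held by both and 2012 by neither. The no-Dox regions held by both lists are those at which the WT-FOXA1 line had a peak with and without Dox and the C258A-FOXA1 line had none. Those held by neither had a peak in the WT-FOXA1 line without Dox and in no DMSO library with Dox of either line. Without WT-FOXA1 Dox replicate 1, 934 had no peak in the remaining list, and without replicate 2, 804. The remaining list then held 1088 and 1218. Without a library that had no Dox, neither list held 2308 (without replicate 1) and 2961 (without replicate 2). Without a C258A-FOXA1 library, both lists held 1846 (without replicate 1) and 2297 (without replicate 2).

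**Figure D1:**
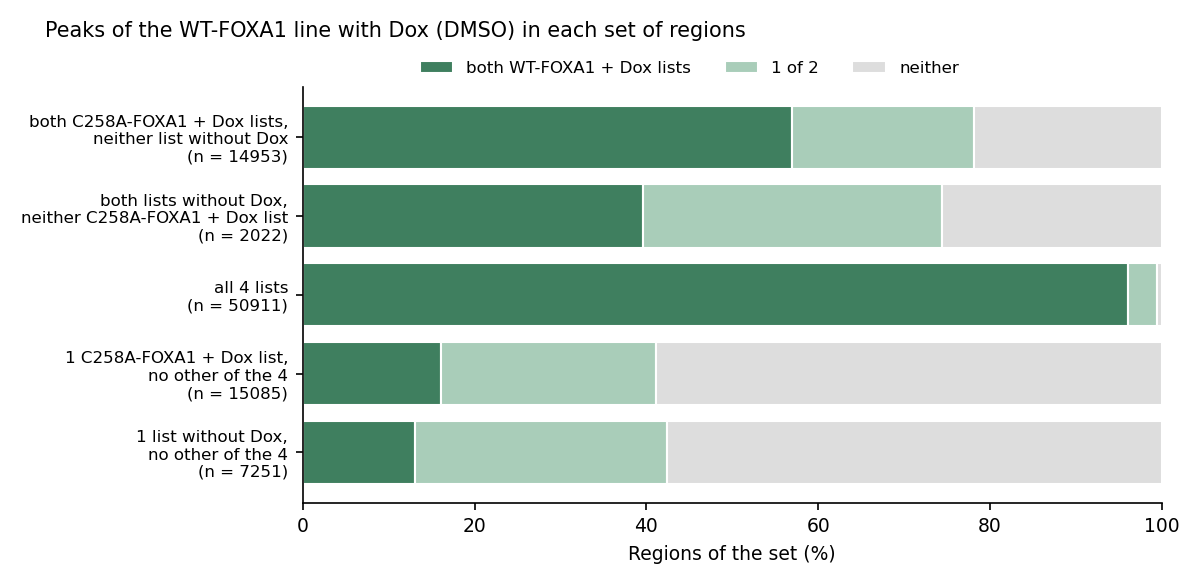
Share of each set of regions (x axis, %) with a peak in both, in 1 or in neither of the DMSO lists of the WT-FOXA1 line with Dox. Each bar is 1 presence pattern over the 4 compared lists, with its number of regions. Both lists held 56.9% of the C258A-Dox regions, 39.7% of the no-Dox regions and 96.1% of the regions of all 4 lists.

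Parental 22Rv1 cells are labelled with no construct and no Dox, and their 15 libraries of 5 treatments did not enter the rule. They were processed in another folder than the engineered lines, per the peak names, so only presence was looked up at the regions. The C258A-Dox regions had a peak in 15.1% to 22.9% of cases per parental library, with a median of 19.6%. The no-Dox regions had one in 64.2% to 82.2%, with a median of 74.3%. The ranges did not overlap. The C258A-Dox regions were chosen for no peak, and the no-Dox regions for a peak, in 22Rv1 cells without Dox. Such a contrast in other 22Rv1 cells without Dox is therefore part of the choice and was not tested. No parental list held 10131 of the C258A-Dox regions (67.8%), against 66 of the no-Dox regions (3.26%). All 15 held 999 (6.68%) and 749 (37.0%). Regions of all 4 lists had a peak in 94.9% to 98.4%. No parental list held 265 of these (0.521%), and all 15 held 45195 (88.8%).

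The C258A-Dox regions that both WT-FOXA1 lists with Dox held had parental peaks about as rarely as those that neither held. The median share per parental library was 18.7% where both lists held the region and 16.5% where neither did. It was higher, at 24.9%, where 1 list did. For no-Dox regions the medians were 82.0% (both), 76.2% (1 list) and 61.6% (neither).

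The 8 treated libraries of the engineered lines, all with Dox, also stood outside the rule, and between them the lines differed while Dox did not. WX-02-23 was given at 20 µM and the spliceosome ligand pladienolide B (PladB) at 100 nM. In the C258A-FOXA1 line 74.5% and 87.8% of the C258A-Dox regions had a peak after WX-02-23, and 66.1% and 69.9% after PladB. In the WT-FOXA1 line the values were 47.6% and 42.8% after WX-02-23, and 51.5% and 69.3% after PladB. After WX-02-23 both C258A-FOXA1 libraries lay above both WT-FOXA1 libraries. After PladB the libraries of the lines interleaved.

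Over both treatments the share was 74.6% ± 9.5 in the C258A-FOXA1 line and 52.8% ± 11.5 in the WT-FOXA1 line (SD, n = 4 each). The difference of 21.8 percentage points came from 35.99 points after WX-02-23 and 7.60 points after PladB. The regions were chosen for peaks in the C258A-FOXA1 line and for none in the WT-FOXA1 line without Dox, so a difference between the lines is part of the choice and these values are a description. The planned exact two-sided permutation test over the 8 libraries (p = 0.111, adjusted 0.222 over both sets) is therefore not read as evidence, and its 36 arrangements allow no p below 0.056. With lists of 1 length the difference was 19.5 points. The background reads per base were 0.648 and 0.917 in the C258A-FOXA1 libraries with WX-02-23, 0.546 and 0.587 in those with PladB, 0.903 and 1.256 in the WT-FOXA1 libraries with WX-02-23, and 0.789 and 0.939 in those with PladB. The C258A-FOXA1 libraries with PladB were thus the shallowest of the 8.

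At the 3263 C258A-Dox regions that neither WT-FOXA1 DMSO list with Dox held, the treated libraries of the lines stood further apart. The C258A-FOXA1 line had a peak at 52.5% and 74.4% of them after WX-02-23 and at 40.4% and 44.7% after PladB. The WT-FOXA1 line had one at 13.4% and 10.9% after WX-02-23 and at 8.89% and 27.6% after PladB. No library of one line reached a value of the other. These regions were chosen for the absence of a peak in the WT-FOXA1 line with DMSO, so no test was made.

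At the 8511 regions that both WT-FOXA1 lists held, the C258A-FOXA1 line had a peak at 86.4% and 95.04% after WX-02-23 and at 80.2% and 83.2% after PladB. The WT-FOXA1 line had one at 67.6% and 61.8% after WX-02-23 and at 76.0% and 90.01% after PladB. Both WT-FOXA1 libraries with WX-02-23 were the lowest here. In that pair of libraries the regions of all 4 lists were also at their lowest, at 87.8% and 84.6%, and their lists were among the shortest, with 67815 and 62832 peaks. The part of list length in these class shares was not tested.

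The no-Dox regions gave an order of the lines after PladB only. After WX-02-23 they had a peak in 21.4% and 39.4% of cases in the C258A-FOXA1 line and 26.8% and 20.4% in the WT-FOXA1 line. After PladB the shares were 20.5% and 23.5% against 32.6% and 60.5%. Both WT-FOXA1 libraries then lay above both C258A-FOXA1 libraries, while after WX-02-23 the libraries of the lines interleaved. The C258A-FOXA1 line had 26.2% ± 8.9 and the WT-FOXA1 line 35.1% ± 17.7 (SD, n = 4 each), a difference of -8.86 points. These regions were chosen for peaks in the WT-FOXA1 line and for none in the C258A-FOXA1 line, so the planned exact permutation test (p = 0.611, adjusted 0.611) is not read as evidence either. The difference was 6.80 points after WX-02-23 and -24.5 points after PladB, so its sign was not the same in both treatments. Without WT-FOXA1 PladB replicate 2 it was -1.88 points, and without WT-FOXA1 PladB replicate 1 it was -15.9 points.

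**Figure D2:**
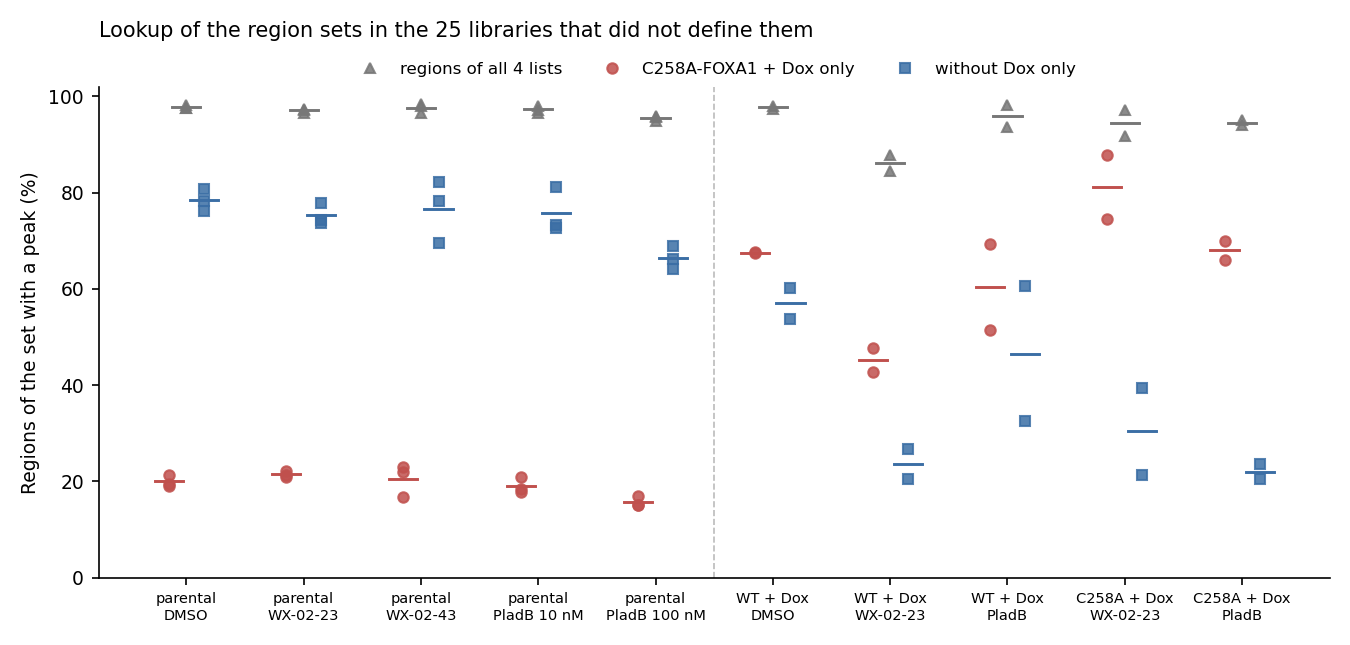
Share of each set with a peak (y axis, %) in the 25 libraries outside the rule, by group (x axis). Points are libraries and lines are group means. C258A-Dox regions stay at or under 22.9% in parental cells and no-Dox regions at or above 64.2%, while regions of all 4 lists lie at 84.6% or more throughout.

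The deposited fold and p-value of a peak fix the number of reads at its summit, which gave peak heights in reads. C258A-Dox regions were of low to middle height. Their median summit held 13 and 14 reads in the C258A-FOXA1 lists (replicates 1 and 2), against 27 and 28 at regions of all 4 lists. The median height was 16 and 17 reads where both WT-FOXA1 lists with Dox held the region, 12 and 12 where 1 did, and 11 and 11 where neither did. The treated C258A-FOXA1 libraries held these 3 classes in the same order. Their mean shares were 90.7%, 73.9% and 63.5% after WX-02-23 and 81.7%, 57.4% and 42.6% after PladB. The order is thus not particular to the WT-FOXA1 line. Whether it reflects how readily a peak is called was not tested. At least 20 reads in both C258A-FOXA1 lists were reached by 2693 C258A-Dox regions (18.0%). Of these, 2419 were held by both WT-FOXA1 lists with Dox and 113 by neither.

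No-Dox regions were lower and narrower. Their median summit held 12 and 11 reads in the lists without Dox, and 134 (6.63%) reached 20 reads in both. The median region width was 249 bp, against 326 bp for C258A-Dox regions and 451 bp for regions of all 4 lists. A region is a merged span, and regions of all 4 lists merge peaks of more lists. Peaks of single lists had median widths of 200 and 197 bp at no-Dox regions and 277 and 283 bp at C258A-Dox regions. At regions of all 4 lists these were 347 to 365 bp over the compared libraries. By the authors' p-value, the median percentile was 36.9 and 38.0 for C258A-Dox regions in the C258A-FOXA1 lists and 18.6 and 16.9 for no-Dox regions in the lists without Dox. The replicate summits of a region lay a median of 43 bp apart at C258A-Dox regions, 37 bp at no-Dox regions and 26 bp at regions of all 4 lists.

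**Figure D3:**
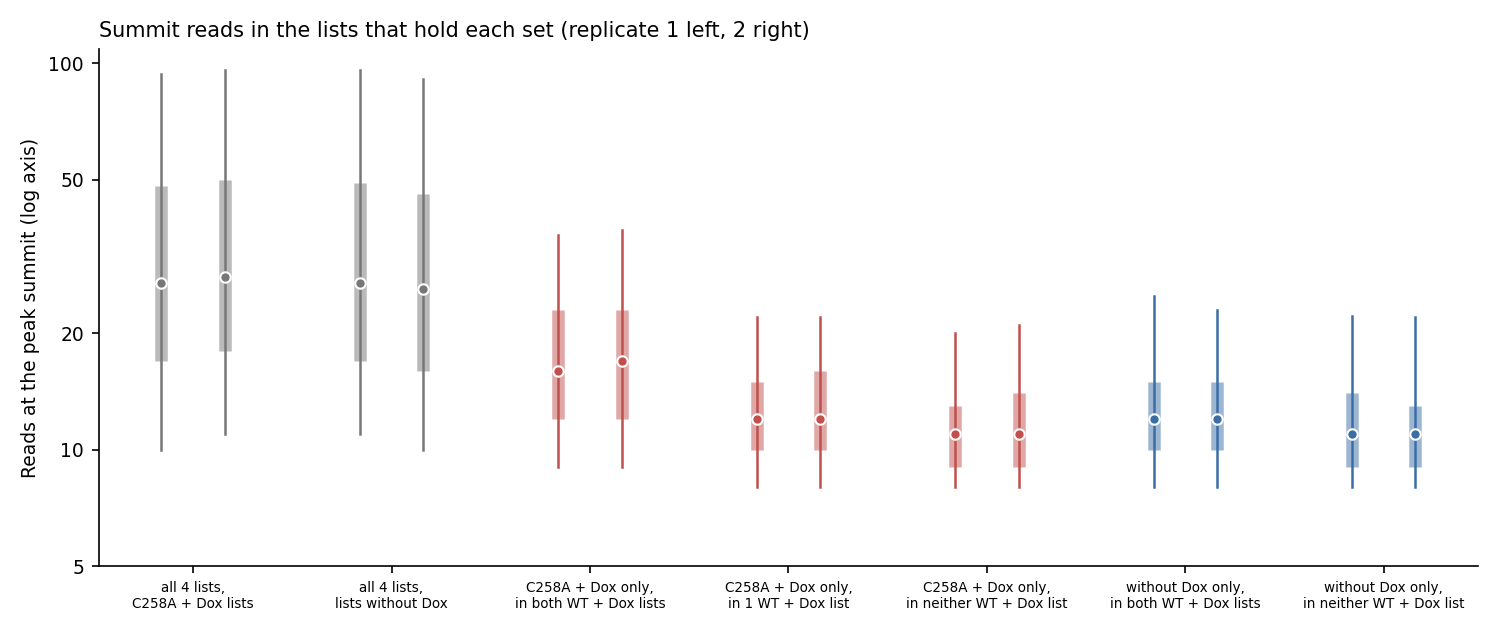
Reads at the peak summit (y axis, log scale) in the lists that hold each set (x axis), with replicate 1 on the left and 2 on the right. Points are medians, thick bars the quartiles and thin lines the 5th to 95th percentiles over regions. Medians run from 26 to 28 reads at regions of all 4 lists and from 11 to 17 in the other sets.

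The heights were also scaled to the depth of the other group. When the summit and local background of each C258A-Dox region were scaled to the depth of a list without Dox, 98.7% to 100.0% of them (over the 4 pairs of libraries) would pass the lowest significance called there. For no-Dox regions scaled to the C258A-FOXA1 lists it was 99.9% to 100%. Both sets were chosen for called peaks in the lists that were scaled, and the depths of the compared libraries were close. That almost all regions pass is therefore largely part of the choice. The figures also leave out counting noise. The part of depth in the absence of peaks was not tested.

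Where both groups had peaks, their heights were alike. Over the 50911 regions of all 4 lists, summit reads per background were 34.0 with C258A-FOXA1 and Dox and 34.5 without Dox (medians of the group means), and the median log2 difference was -0.04. The medians of single library pairs ran from -0.15 to 0.08, on both sides of 0. The height was over 2-fold higher with C258A-FOXA1 and Dox at 262 regions (0.515%) and over 2-fold lower at 108 (0.212%). Within a group, the log2 height of the replicates differed by an SD of 0.29 over these regions in each of the compared groups.

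At the C258A-Dox regions shared with the WT-FOXA1 line, the C258A-FOXA1 summits were the higher ones. Over 8305 such regions with a summit in all 4 lists with Dox, reads per background were 20.4 in the C258A-FOXA1 line and 16.3 in the WT-FOXA1 line. The median log2 difference was 0.31, with 0.19 to 0.42 over single library pairs, and 75.1% of the regions were higher with C258A-FOXA1. At 48590 regions of all 4 lists that had summits in both WT-FOXA1 lists with Dox, the same difference was 0.07 with -0.04 to 0.14 over library pairs. The regions were chosen on peaks in the C258A-FOXA1 lists, so no test was made.

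C258A-Dox regions lay far from the shared open regions. The median distance to the nearest region of all 4 lists was 29.7 kb, and 17.9% were more than 100 kb away. No-Dox regions lay at a median of 12.9 kb, with 5.89% beyond 100 kb. A region of all 4 lists was 11.5 kb from its nearest neighbour of that kind. The distance of C258A-Dox regions was like whether both WT-FOXA1 lists with Dox held them (30.1 kb) or neither did (30.8 kb).

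Their spread over chromosomes was uneven. Among chromosomes 1 to 22 and X, C258A-Dox regions made up 21.7% of the regions of chromosome 4 and 21.6% of chromosome 13, followed by 17.8% of chromosome 18 and 17.7% of chromosome 5. They made up 3.86% of chromosome 19, 6.91% of chromosome 22, 7.40% of chromosome 17 and 8.43% of chromosome 16. Chromosomes 4, 13 and 18 are known as gene-poor and chromosomes 17, 19 and 22 as gene-rich. Those held by both WT-FOXA1 lists with Dox ran from 2.15% of chromosome 19 to 12.7% of chromosome 13. Those held by neither ran from 0.778% of chromosome 19 to 5.26% of chromosome 4. No-Dox regions ran from 1.42% of chromosome 4 to 2.64% of chromosome 16. Chromosome Y, left out of these ranges, had 292 regions, of which 64 (21.9%) were C258A-Dox, 16 (5.48%) C258A-Dox and held by neither WT-FOXA1 list with Dox, and 3 (1.03%) no-Dox.

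The local background around the shared regions was close between the groups on chromosomes 1 to 22 and X. At regions of all 4 lists, the median log2 difference in local background between C258A-FOXA1 with Dox and WT-FOXA1 without Dox, each relative to its genome background, ran from -0.05 on chromosome 12 to 0.0048 on chromosome 8. The summit heights differed by -0.07 on chromosome 19 to 0.0016 on chromosome 4.

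**Figure D4:**
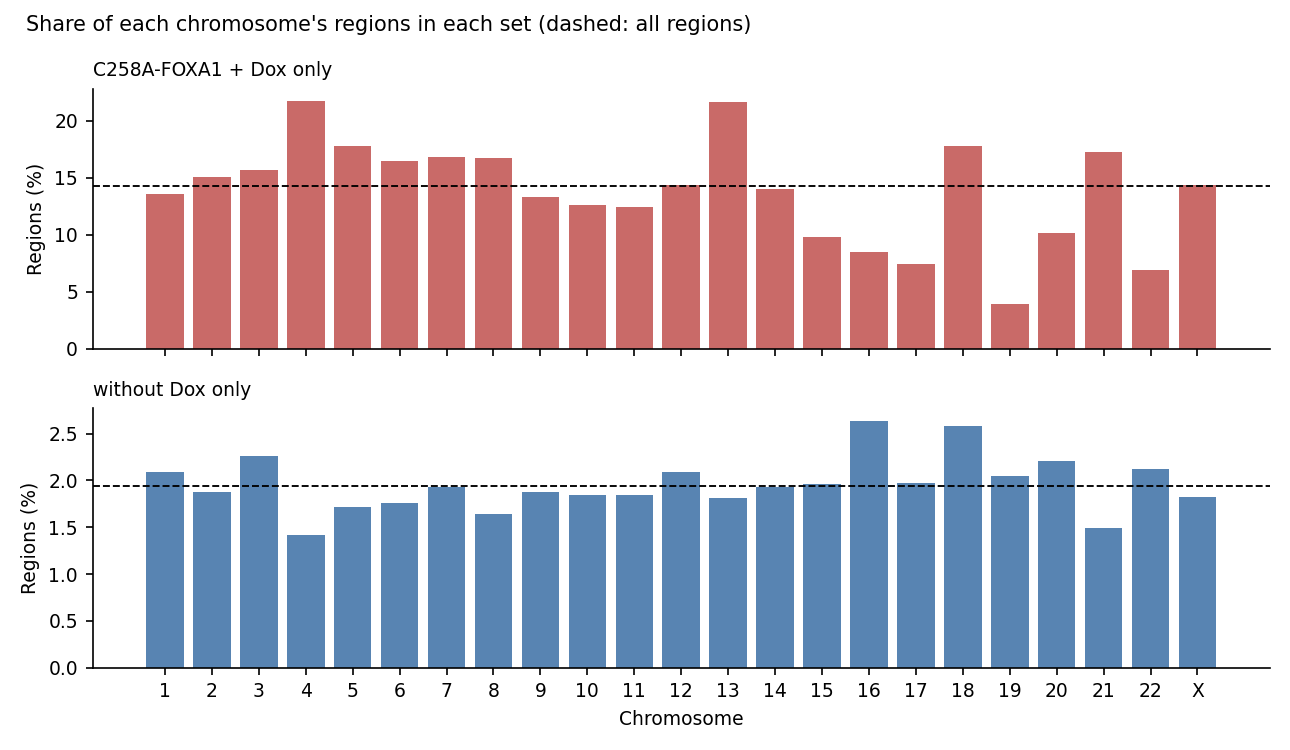
Share of each chromosome's regions (y axis, %) that are C258A-Dox regions (top) or no-Dox regions (bottom), by chromosome (x axis, 1 to 22 and X, without Y). Dashed lines mark 14.3% and 1.94%, the shares over all regions. The top panel runs from 3.86% on chromosome 19 to 21.7% on chromosome 4, and the bottom panel from 1.42% to 2.64%.

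C258A-Dox regions were spread over many windows of 1 Mb. The window with the most was chromosome 1 from 195000001 to 196000000, where 28 of 56 regions were C258A-Dox and 10 were held by all 4 lists. Chromosome 12 from 86000001 to 87000000 followed with 26 of 49 regions, and chromosome 5 from 19000001 to 20000000 with 25 of 42. Both WT-FOXA1 lists with Dox held 13, 17 and 16 of these. Over 2905 windows with any region the median was 4, and 382 windows held 10 or more. No-Dox regions never exceeded 5 in a window, a number that 8 windows shared, so no window of theirs is named. All positions are of build hg19, and genes at them were not analysed here.

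The C258A-Dox regions of highest rank were strong peaks in both lines with Dox. They were ranked by the authors' p-value in the C258A-FOXA1 lists, among those that both WT-FOXA1 lists with Dox held. The first lay on chromosome 9 from 18085312 to 18085945. Its summit held 78 and 81 reads with C258A-FOXA1, 49 and 69 with WT-FOXA1 and Dox, and no peak was called without Dox or in any parental library. After WX-02-23 the C258A-FOXA1 line still held 60 and 83 reads there and the WT-FOXA1 line 48 and 46. The region of rank 2, on chromosome 1 from 231478769 to 231479242, held 76 and 84 reads with C258A-FOXA1 against 39 and 38 with WT-FOXA1. After WX-02-23 it held 57 and 80 reads in the C258A-FOXA1 line and 13 and 19 in the WT-FOXA1 line. In both lines with DMSO and Dox these summits stood well above the 6 reads at which calling began.

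The other regions of this class were like them. They lay on chromosome 1 from 99371455 to 99372068 (80 and 73 reads with C258A-FOXA1, 56 and 63 with WT-FOXA1), chromosome 7 from 89355602 to 89356226 (68 and 84 against 42 and 43), and chromosome 14 from 27537664 to 27538284 (70 and 78 against 57 and 56). At the chromosome 7 region 2 of 15 parental lists held a peak, and at the others none did. In all 5 regions both C258A-FOXA1 libraries lay above both WT-FOXA1 libraries with Dox. The regions were ranked on the C258A-FOXA1 lists, so high reads in these are part of the choice and the order is only a description. The authors' fold in the C258A-FOXA1 lists ran from 13.7 to 18.9 over the 5 regions.

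Where neither WT-FOXA1 list with Dox held the region, the highest-ranked summits were lower. The first, on chromosome 10 from 54584649 to 54585257, held 23 and 24 reads with C258A-FOXA1. It also held 14 and 24 after WX-02-23 and 17 and 16 after PladB in that line, and no peak in any WT-FOXA1 or parental library. A region on chromosome X from 145342920 to 145343386 showed the same presence, with 20 and 21 reads after DMSO, 14 and 18 after WX-02-23 and 8 and 7 after PladB. Both were thus held by all 6 C258A-FOXA1 libraries and by no other library of the series.

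The remaining regions of that class had peaks in treated WT-FOXA1 libraries. On chromosome 4 from 168791593 to 168791900 the C258A-FOXA1 DMSO libraries held 19 and 24 reads, and the WT-FOXA1 line 12 and 15 after WX-02-23. On chromosome 3 from 46222007 to 46222420 they held 28 and 18, and 1 WT-FOXA1 library of each treatment held 9. On chromosome 11 from 87686896 to 87687276 they held 21 and 21, and 1 WT-FOXA1 library with PladB held 11. None of the 3 had a parental peak.

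The no-Dox regions that the WT-FOXA1 line kept with Dox are given with the summits of the WT-FOXA1 line in both states. On chromosome 3 from 168823336 to 168823838 there were 19 and 23 reads without Dox and 15 and 20 with Dox. On chromosome 18 from 6352162 to 6352680 there were 23 and 20 against 20 and 16. On chromosome 2 from 14774459 to 14774824 there were 37 and 37 against 38 and 39, at a fold of 6.0 and 6.4 without Dox. In these 3 regions the values with and without Dox overlapped, met or lay 1 to 2 reads apart. On chromosome 2 from 149981609 to 149982070 they also overlapped, at 19 and 15 against 18 and 20. On chromosome 19 from 42082311 to 42082635 they did not, with 16 and 18 reads without Dox and 12 and 11 with Dox. Of the 15 parental lists, 2 held the chromosome 3 region, 12 the region starting at 149981609, and all 15 the other 3.

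Absence in the C258A-FOXA1 line was not complete at these regions. In the treated C258A-FOXA1 libraries the chromosome 3 region held 9 reads in 1 library with WX-02-23 and 8 and 8 with PladB, and the region starting at 14774459 held 20 in 1 library with WX-02-23 and 19 in 1 with PladB. Only the region starting at 149981609 had no peak in any of the 6 C258A-FOXA1 libraries.

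The no-Dox regions that neither WT-FOXA1 list with Dox held had the lowest mean percentiles of the 4 classes. The first was chromosome 6 from 108997860 to 108998084, with 22 and 22 reads without Dox. Next came chromosome 8 from 116392988 to 116393250 with 16 and 14, and chromosome 19 from 13128635 to 13128851 with 49 and 40. The last were chromosome 2 from 122476343 to 122476631 with 12 and 17, and chromosome 8 from 95912511 to 95912796 with 27 and 31. The chromosome 19 region combined many reads with a fold of only 4.1 and 3.7, and the chromosome 8 region starting at 95912511 a fold of 4.8 and 5.7, since their local background was high. All 15 parental lists held 3 of the 5 regions, 12 held the chromosome 19 region and 3 the chromosome 6 region. At least 1 PladB library of the WT-FOXA1 line held each of the 5.

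**Figure D5:**
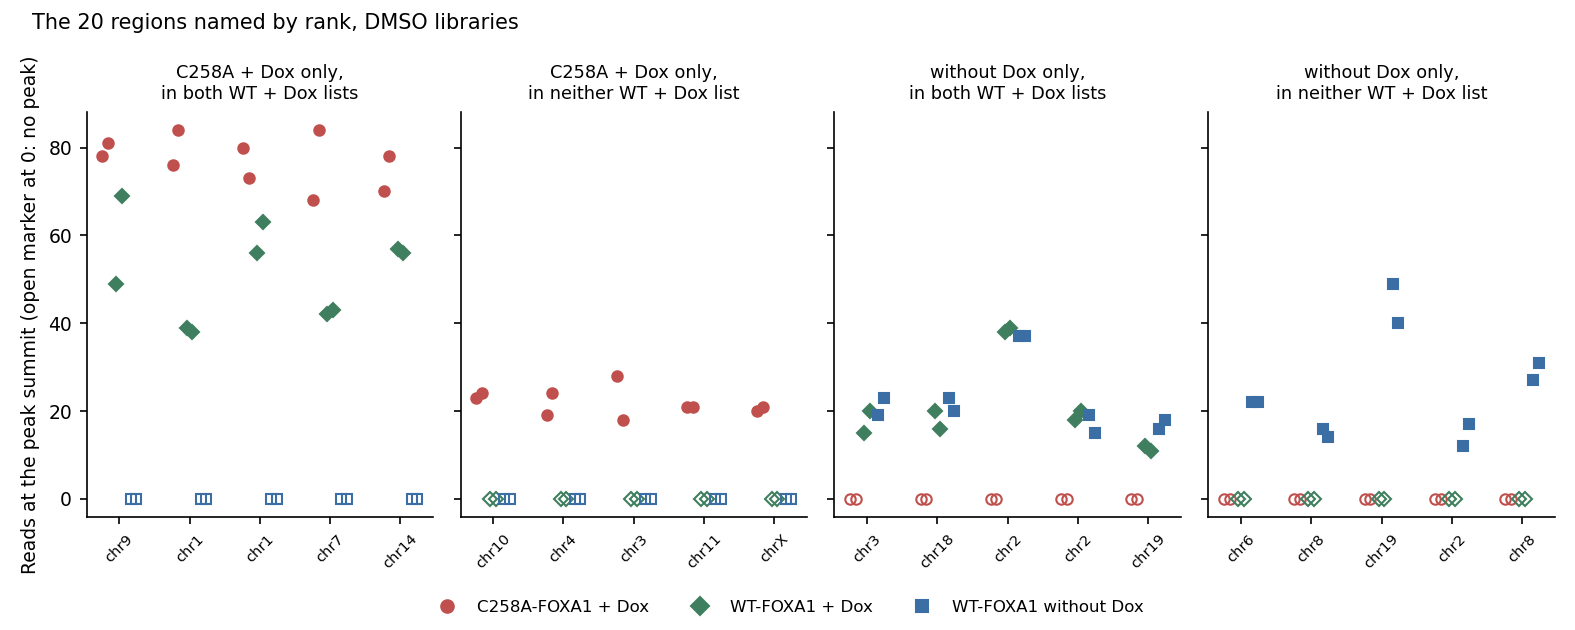
Reads at the peak summit (y axis) of the 20 regions named by rank, in 4 classes (panels) and ordered by rank (x axis, by chromosome). Filled markers are peaks in single DMSO libraries and open markers at 0 are libraries without a peak. In the first panel the C258A-FOXA1 libraries hold 68 to 84 reads and the WT-FOXA1 libraries with Dox 38 to 69, and neither library without Dox has a peak.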

How the data were processed

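ATAC-seq peak lists, 1 per library, were used as deposited. The submitters' processing notes name Bowtie2, MACS2 and hg19. On versions, options and duplicate removal nothing is given in the sources used here. The deposited columns hold a score, a fold enrichment (ratio), the −log10 p-value, the −log10 q-value and the summit offset, in the column order of MACS2. No list held a −log10 q under 2, which is a q-value of 0.01. The score was not used.

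Peaks on chromosomes 1 to 22, X and Y of the 4 lists were merged when overlapping or touching. A list held a region when a peak overlapped it by at least 1 bp. MACS2 computes the fold as summit reads plus 1 over background plus 1 and the p-value from a Poisson distribution. Solving both gave the summit reads and local background of every peak in all 29 lists (tolerance 0.001 in −log10 p), with 1 solution for 97.2% to 100% per list. Local backgrounds above the genome background lay on steps of 0.015 reads per base in every list, as 1 read of 150 bp in 10 kb gives. The genome background served as relative depth. Heights are summit reads over it.

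Named regions are the 5 of highest mean percentile of the authors' p-value in each of 4 classes, and the 3 windows of 1 Mb with most regions. Exact permutation tests had a threshold of 0.05. The regions, sets and rules were chosen with earlier results of these data known, and the summit reads, distances and chromosome shares were added after seeing the data. The alternatives tried were a fold of at least 6, lists of equal length, q-values up to 1e-05, peaks covering 50% of a region, summits extended by 100 bp to either side, merging up to 500 bp, regions of all 29 lists, all sequences, the replicate block and leaving out each library. Counting, read recovery and tests were checked on simulated data, and merging against bedtools 2.31.1. Tests used scipy 1.17.1 and statsmodels 0.14.6, tables numpy 2.4.6 and pandas 2.3.3, and plots matplotlib 3.10.9, under Python 3.11.15. No genome or annotation of hg19 was used here, so gene names, cell type markers and sequences at the regions were not analysed here.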

Additional observations from a re-analysis of the deposited data

How the results depend on the processing

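Of 148 alternative values over 11 results, 108 stayed within 1.5 times a reported count, within 1 SD of a reported share or on the same side of 0 as a reported difference, and 40 moved further. No difference changed sign, but the order of the mean shares of C258A-Dox and no-Dox regions in the WT-FOXA1 lists with Dox turned round without either C258A-FOXA1 library. Lists of equal length gave 8947 C258A-Dox and 4994 no-Dox regions. Both WT-FOXA1 lists with Dox then held 4616 and 1270 of them, neither held 2012 no-Dox regions, and the mean shares were 62.9% and 42.6%. Equal lists drop weak peaks from the longer lists only. A fold of at least 6 gave 9859 C258A-Dox regions, 4794 of them held by both WT-FOXA1 lists with Dox, and mean shares of 60.5% and 50.5%. The mean share of C258A-Dox regions, whose SD was 0.052, was 62.0% with 50% of a region covered, 66.0% with a q-value of 1e-05 or below and with summit windows, 68.3% with peaks up to 500 bp apart merged and 68.0% with regions of all 29 lists.

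Leaving out 1 library gave 17148 to 23737 C258A-Dox and 3757 to 6315 no-Dox regions. Of the C258A-Dox regions 9661 to 10545 were held by both WT-FOXA1 lists with Dox and 3474 to 8378 by neither, with mean shares of 53.3% to 69.1%. Of the no-Dox regions 1088 to 2297 were held by both and 707 to 2961 by neither, with mean shares of 37.4% to 67.8%. Fewer lists make the presence rule easier to pass. The line difference in treated libraries ran from 17.0 to 26.2 points at C258A-Dox regions and from -15.9 to -1.88 at no-Dox regions, and the difference in peak number between the compared groups from 15756 to 18666. With the replicate number as a block the differences are again 21.8 points, -8.86 points and 17211 peaks. In this balanced design they cannot change, although they count among the values that stayed. Only the p-value can, and for peak number it was 0.5 (exact permutation test). Same-numbered libraries of the compared groups showed no shared deviation over regions (r = 0.0015 over summit heights). A correlation over regions cannot tell whether they shared a culture, so pairing stays unknown. Of 160 values for the 20 named regions 157 kept their presence pattern. With a fold of at least 6, 3 lost it: chromosome 2 from 14774459, chromosome 19 from 13128635 and chromosome 8 from 95912511. Leaving out a library could not change the pattern, since each region was chosen for peaks in both lists of 1 group and in none of the other. The regions were also picked for high rank by p-value, so the 157 are not read as evidence of stability.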

Other observations

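Of the 14953 C258A-Dox regions, 510 had a peak in all 4 treated C258A-FOXA1 libraries and in none of the 4 treated WT-FOXA1 libraries, and 9 showed the reverse. Of these 510 regions 429 had no peak in any parental library. Among the 3263 that neither WT-FOXA1 DMSO list with Dox held, the count was 261, of which 226 had no parental peak. Among the 50911 regions of all 4 lists, 47 had this pattern and 7 its reverse. At the no-Dox regions the pattern in favour of the WT-FOXA1 line was seen at 16 regions and that in favour of the C258A-FOXA1 line at 3. The C258A-Dox regions were chosen for peaks in the C258A-FOXA1 line, and the 3263 also for none in the WT-FOXA1 line with DMSO and Dox. The no-Dox regions were chosen the other way. An excess in the direction of the choice is therefore part of it. All these counts were looked up after seeing the data and were not tested.

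Among the DMSO libraries of the engineered lines, the lists without Dox held a smaller share of peaks at the genome background than those with Dox. The share of peaks whose local background equalled that of the genome was 16.02% and 14.3% without Dox, 20.7% and 22.8% with C258A-FOXA1 and Dox, and 22.0% and 22.1% with WT-FOXA1 and Dox. The order did not extend to all cells without Dox. Parental libraries, processed in another folder, had 20.5%, 23.8% and 21.8% with DMSO and 16.4% to 23.8% over all treatments. The treated libraries of the engineered lines, all with Dox, had 16.8% to 25.2%.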
